A study of Mus musculus with 3 samples.

Results

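Imprinted genes that lie inside an intron of another gene were followed together with the genes that host them. The members were Mcts2 in H13, Nap1l5 in Herc3, Zrsr1 in Commd1, Nnat in Blcap, and Inpp5f, which starts an imprinted transcript from one of its own introns. They were found by symbol in the platform's probe table, taking every probe set that carried that symbol alone. Of the 9 genes, 8 had a probe set, out of 18193 genes named on the array, and they had 17 probe sets in all. H13 had 6 of these, Inpp5f 3, Herc3 and Commd1 2 each, and Mcts2, Nap1l5, Nnat and Blcap 1 each. Zrsr1 had none and was not analysed here, so Commd1 is described without the gene inside it.

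The arrays held RNA of whole embryos at 8.5 days post coitum (dpc), pooled from litter mates of mixed sex. The normal group was 1 array of 6 pooled C57Bl/6J embryos, which the labels set apart from methylation mutants without giving an allele of Dnmt3l. The mutant group was 2 arrays, called biological replicates in the series design, of 8 and 6 pooled embryos. These embryos were Dnmt3l-/+ on a C57Bl/6J background, from Dnmt3l-/- mothers crossed with wildtype fathers, so that the oocytes lacked Dnmt3l and the embryos carried a wildtype copy from the father. Pooling removes the spread between embryos, and the signal of a probe set sums both parental alleles. With 1 normal array, the spread between normal pools was not measured, and the number of arrays limits the precision of every value.

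Genomic imprinting leaves a gene active on the copy from one parent and silent on the other. Many such genes are set by DNA methylation that the oocyte lays down over a CG-rich start site, a step that needs Dnmt3l, a partner of the de novo DNA methyltransferases. Several imprinted genes arose as retrogenes, intronless copies of a messenger RNA that landed in an intron of another gene. Mcts2, Nap1l5 and Zrsr1 are of this kind, with the mark on the maternal copy and expression from the paternal copy. The intronic transcript of Inpp5f is marked and expressed in the same way and is followed with them here. Nnat has the same nested arrangement inside Blcap but is not usually counted as a retrogene. For H13 and Herc3 it is known in mouse that the polyadenylation site used differs between the parental alleles and depends on the intronic gene. Probe sets at different places along the host can therefore read different transcripts, and which transcript each probe set reads is not given in the sources used here.

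In the RefSeq gene table (GRCm38.p6) each of the 4 intronic genes lay wholly inside the span of its host. Mcts2 spans 0.799 kb within the 39.2 kb of H13 on chromosome 2 and runs on the same strand. The other 3 run on the strand opposite to the host: Nap1l5 (1.89 kb) in Herc3 (88.9 kb) on chromosome 6, Zrsr1 (4.49 kb) in Commd1 (84.8 kb) on chromosome 11, and Nnat (2.45 kb) in Blcap (10 kb) on chromosome 2. Inpp5f lies on chromosome 7.

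The start-site windows of 3 intronic genes and of H13 are shown because the methylation at stake is carried by CG dinucleotides, which are printed in capitals. Each window is from RefSeq, GRCm38.p6, and runs 5′ to 3′ on the gene's own strand from 250 bases before the annotated start to 50 bases after it. Mcts2 is chr2:152686898-152687197 on the plus strand, H13 is chr2:152669211-152669510 on the plus strand, Nap1l5 is chr6:58907077-58907376 on the minus strand, and Nnat is chr2:157559828-157560127 on the plus strand.
Mcts2: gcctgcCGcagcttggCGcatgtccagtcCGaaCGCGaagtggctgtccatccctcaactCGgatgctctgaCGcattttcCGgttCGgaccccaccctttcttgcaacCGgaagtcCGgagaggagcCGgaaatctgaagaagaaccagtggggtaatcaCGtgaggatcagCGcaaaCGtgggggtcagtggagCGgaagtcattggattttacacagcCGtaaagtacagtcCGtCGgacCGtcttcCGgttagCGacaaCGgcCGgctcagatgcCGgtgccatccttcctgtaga
H13: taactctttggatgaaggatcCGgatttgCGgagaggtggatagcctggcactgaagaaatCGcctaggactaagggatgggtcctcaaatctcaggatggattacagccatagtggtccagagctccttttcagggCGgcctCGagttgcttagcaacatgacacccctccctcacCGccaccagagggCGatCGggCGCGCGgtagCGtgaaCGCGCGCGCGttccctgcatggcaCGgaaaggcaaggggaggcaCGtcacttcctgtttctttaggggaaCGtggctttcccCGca
Nap1l5: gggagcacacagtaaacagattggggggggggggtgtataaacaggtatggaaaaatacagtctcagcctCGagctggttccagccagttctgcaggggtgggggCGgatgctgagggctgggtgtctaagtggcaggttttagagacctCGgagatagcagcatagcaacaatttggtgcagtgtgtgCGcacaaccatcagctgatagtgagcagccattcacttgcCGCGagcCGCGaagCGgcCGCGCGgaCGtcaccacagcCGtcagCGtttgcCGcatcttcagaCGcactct
Nnat: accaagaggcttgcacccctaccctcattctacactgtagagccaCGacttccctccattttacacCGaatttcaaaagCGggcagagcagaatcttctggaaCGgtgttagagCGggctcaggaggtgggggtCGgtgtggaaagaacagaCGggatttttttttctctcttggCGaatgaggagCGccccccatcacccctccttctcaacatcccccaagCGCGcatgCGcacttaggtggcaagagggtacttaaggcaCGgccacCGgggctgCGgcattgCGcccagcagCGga

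Mcts2 had 25 CG dinucleotides in its window, the highest count among the 10 windows of the 9 members. Over all 32851 windows of 300 bases in the table the median was 7, and 81.6% of them held fewer than the Mcts2 window. H13 held 21, and Nap1l5, Nnat and Blcap held 17 each. Commd1 has 2 annotated starts, with 17 and 18. Inpp5f held 15 at the start listed for the gene, Zrsr1 10 and Herc3 4. The start of the imprinted intronic transcript of Inpp5f was not examined separately. The counts therefore did not separate the intronic genes from the hosts, since H13 and Blcap were at or above Nap1l5 and Nnat. The letters TGCCGC, the core sequence bound by the imprint-protecting zinc finger protein ZFP57 when methylated, were searched on both strands. Mcts2 and Nnat had 1 match each, Nap1l5 2, and the second Commd1 window 1, against at least 1 match in 11.6% of all windows. That share covers windows with a median of 7 CG dinucleotides, fewer than most member windows held. Windows of like CG count were not compared, so no enrichment can be read from it. H13, Herc3, Zrsr1, Blcap, Inpp5f and the first Commd1 window had no match in these letters.

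**Figure D1:**
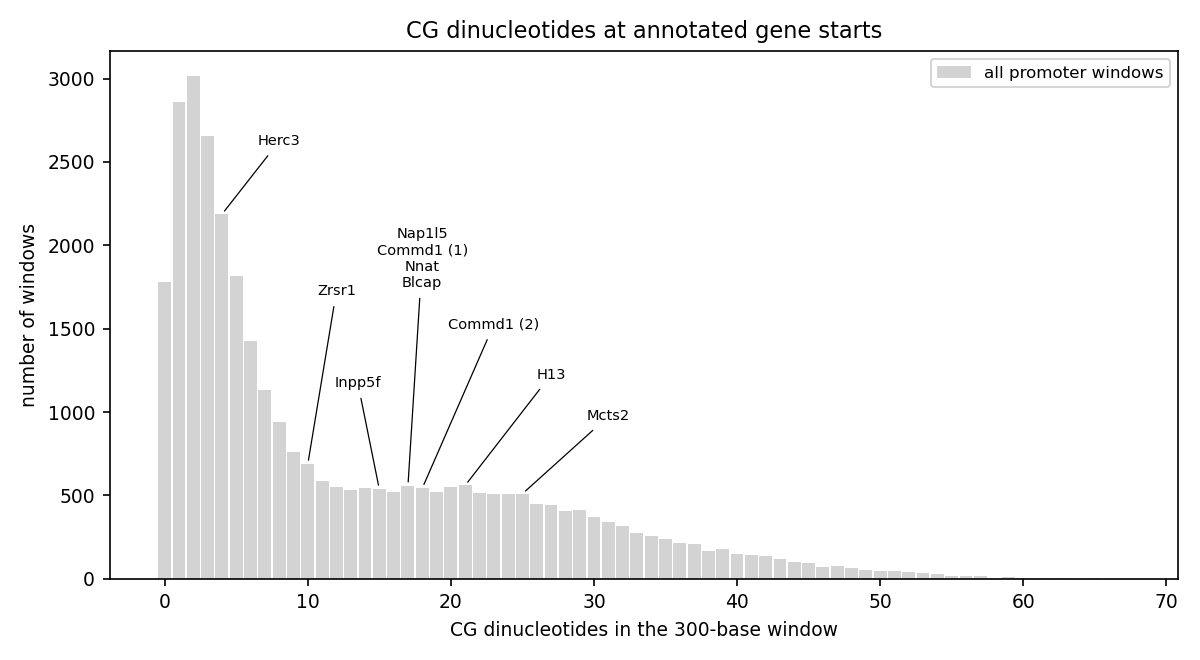
Number of annotated 300-base start windows (bars, vertical axis) by how many CG dinucleotides they hold (horizontal axis), with the member windows named at their counts. Mcts2 stands at 25, H13 at 21, Nap1l5, Nnat and Blcap at 17, and Herc3 at 4, against a median of 7.

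No member passed the test across the array, so the changes below are given as values. Log2 ratios compare log2(signal + 31.92) on a mutant array with the normal array, and they understate the change of dim probe sets. A filter on dim probe sets kept 27022 on the array and 15 of the 17 member probe sets. Limma, with Benjamini-Hochberg adjustment over all kept probe sets, called 0.548% of them higher and 0.0296% lower at an adjusted p of 0.05, and 0 member probe sets in either direction. At an unadjusted p under 0.05 it gave 3 of the 15 on each side, against 6.7% of all kept probe sets higher and 6.86% lower. The higher ones were of Mcts2, Herc3 and Inpp5f, and the lower ones were 2 of H13 and 1 of Commd1. Probe sets of the same gene are not independent, and 5 of the 15 are of H13, so these counts are not counts of genes. Of the 15, 7 were higher in both mutant arrays, 7 lower in both, and Nap1l5 differed in sign, against 32.2% and 42.5% of all kept probe sets. Their median log2 ratio was 0.03, against -0.07 for all kept probe sets.

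**Figure D2:**
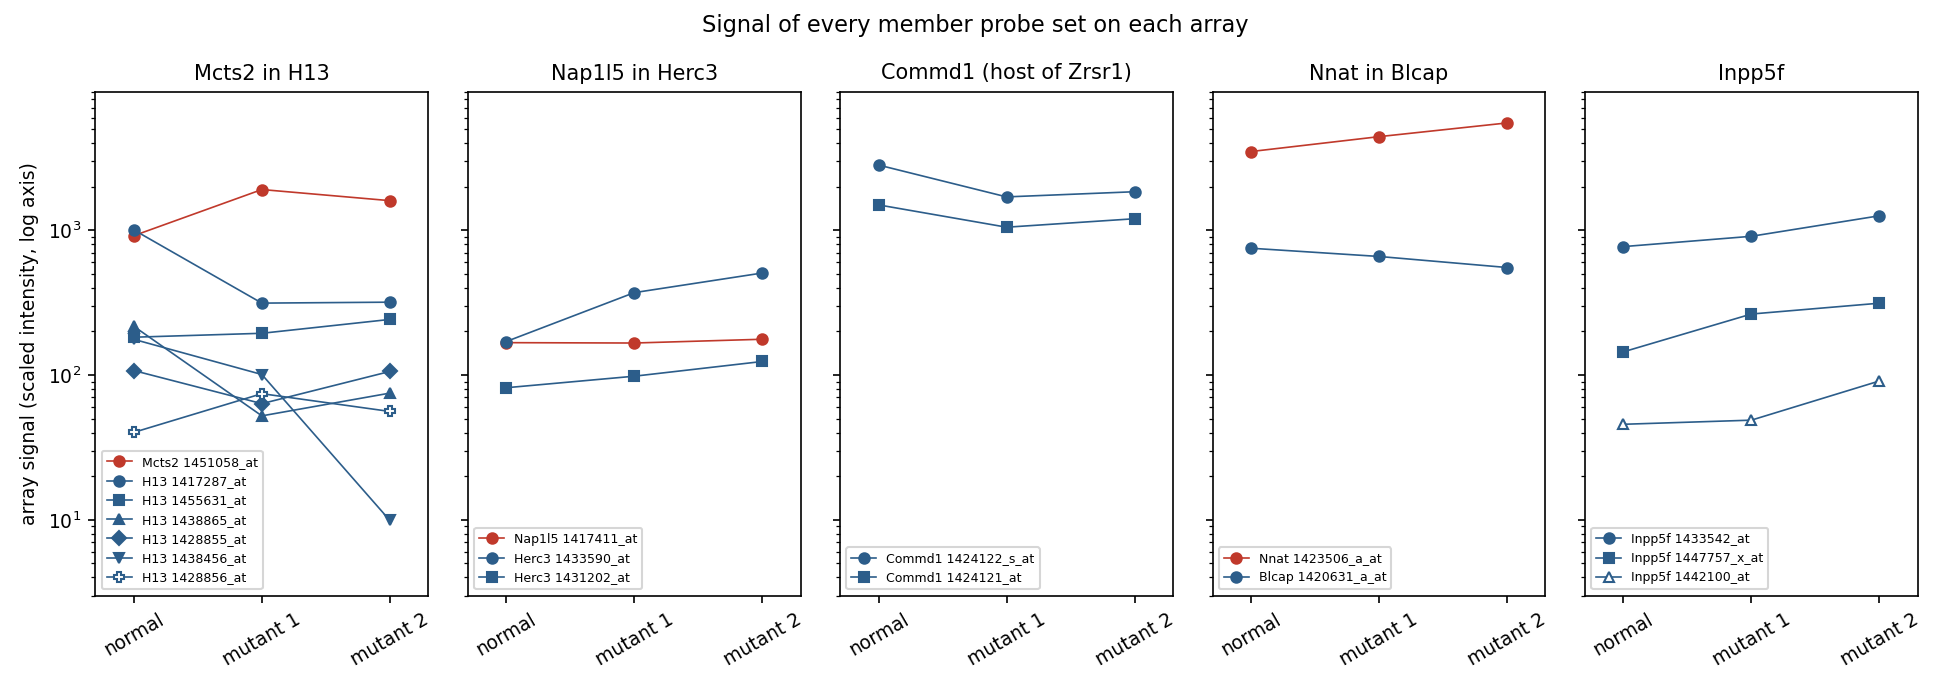
Array signal (scaled intensity, log axis) of every member probe set on the normal array and mutant arrays 1 and 2, with intronic genes in red, hosts in blue and probe sets removed by the filter as open symbols. Mcts2 goes up from 917 and H13 1417287_at down from 1004, Herc3 1433590_at goes up from 170, and levels of different probe sets are not comparable with each other.

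The pools differed in tissue markers. All 10 yolk sac endoderm markers passed as higher, and their summed signal was 18012 on the normal array and 95172 and 102000 on the mutant arrays. Of 5 kept embryonic blood markers 2 passed as higher (summed signal 19022 against 43601 and 46585). All 5 heart markers were lower in both mutant arrays, with 0 passing (26992 against 14765 and 19845), and neural tube markers summed to 10163 against 4816 and 7844. Of 4 kept neuron markers 3 were lower in both, while Elavl3 was higher in both, from 86.2 to 179 and 237. The 4 summed to 1566 against 1239 and 1109. Of 6 decidua and uterus markers 4 were lower in both mutant arrays and 2 higher in both. Only 1, Prl8a2, passed, as lower, from 1376 to 91.2 and 111. The 2 higher ones were Lum, from 444 to 749 and 2530, and Wnt4, from 210 to 237 and 350. The summed signal of all 6 was 4106 against 2879 and 4643. The part of tissue makeup in the values of Mcts2, H13, Herc3 and the other members was not tested, and in pooled whole embryos fewer cells of a type and less RNA per cell cannot be told apart. For the Actb control probe sets, the signal at the 3′ end divided by that at the 5′ end was 1.63 in the normal pool and 1.24 and 1.43 in the mutant pools. For the Gapdh control it was 0.930 in the normal pool, 0.859 in mutant 1 and 1.10 in mutant 2, so the 2 controls did not order the pools alike. Their part in the differences between H13 probe sets was not tested either.

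Mcts2 is a retrogene copy of the X-linked gene Mcts1 and codes for a protein of the MCT-1 family, which helps ribosomes to recycle and to start again on messenger RNA. Mcts2 signal was 917 in the normal pool, 1909 in mutant 1 and 1600 in mutant 2. Both mutant signals were above the normal one, and their mean was 1754 ± 219 (SD, n = 2), 1.91 times the normal signal. The log2 ratios were 1.03 and 0.78, with a mean of 0.91 (SE 0.23) and an adjusted p of 0.204 by limma. The gap between the mutant arrays, 0.25, was close to the median gap of all kept probe sets, 0.24. A higher mean log2 ratio was found for 4.21% of kept probe sets. Like most member probe sets, that of Mcts2 is not listed with a RefSeq transcript of its gene as its source. Mcts2 and Mcts1 are close in sequence, and whether this probe set also binds RNA of Mcts1 is not given in the sources used here.

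H13 codes for signal peptide peptidase, a membrane protease that cuts leftover signal peptides. The brightest of its probe sets, 1417287_at, is listed with a RefSeq transcript of H13 as its source and read 1004 in the normal pool against 314 and 318 in the mutant pools. The mutant arrays lay close together and far below the normal array, with a mean of 316.1 ± 3.33 (SD, n = 2), and the normal signal was 3.18 times theirs. The log2 ratios were -1.58 and -1.56, with a mean of -1.57 (SE 0.26), and the adjusted p of 0.0932 was the lowest of any member. Only 0.611% of kept probe sets had a lower mean log2 ratio.

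The other H13 probe sets divided into lower ones and ones near or above the normal array. Probe set 1438865_at read 217 in the normal pool and 52.2 and 75.02 in the mutant pools, a mean log2 ratio of -1.39 (SE 0.37, adjusted p = 0.221). It and 1417287_at were the 2 member probe sets whose log2 ratio was -1 or less in each mutant pool, as it was for 1.9% of kept probe sets. On the normal array 1438865_at ranked above 59.1% of probe sets, but on the mutant arrays above only 29.4% and 34.3%. It thus passed the filter at the 40th percentile mainly by its normal signal, and its fall is not separate support for that of 1417287_at. Probe set 1438456_at read 176 against 101 and 9.91, so its mean log2 ratio of -1.48 (SE 0.72, adjusted p = 0.448) came from -0.65 in mutant 1 and -2.32 in mutant 2, where the signal lay under the pseudocount. Probe sets 1417287_at, 1438865_at and 1438456_at were thus lower in both mutant pools. Probe set 1428855_at was also below the normal array in both, at 107 against 63.4 and 106, though nearly level with it in mutant 2. Its log2 ratios were -0.55 and -0.02, with a mean of -0.28 (SE 0.41). Probe set 1455631_at read 182 in the normal pool and 194 and 242 in the mutant pools, and its log2 ratio was 0.22 (SE 0.32). The filter removed 1428856_at, which read 40.2 against 74.4 and 56.0, with log2 ratios of 0.56 and 0.29. The H13 probe sets thus did not share one direction. Between 1417287_at and 1455631_at the log2 ratios differed by -1.66 in mutant 1 and by -1.92 in mutant 2 (exact permutation p = 0.333, the smallest that 3 arrays allow).

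Set against each other, Mcts2 and H13 differed in direction in both mutant pools where H13 was read by its brightest probe set. The difference, Mcts2 minus H13 1417287_at, was 2.62 in mutant 1 and 2.35 in mutant 2, with a mean of 2.48, or a 5.58-fold change of one relative to the other. The exact permutation test over the 3 arrays gave a two-sided p of 0.333 for this pair, and no arrangement of 1 against 2 arrays can give less. Against the other 5 H13 probe sets the mean difference ran from 0.48 (1428856_at) and 0.69 (1455631_at) to 2.39 (1438456_at). Mcts2 was the higher of each of these comparisons in both mutant arrays, and the size of the difference varied with the host probe set taken.

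The parent of Mcts2 and the known partners of its family were not higher in the mutant pools. Mcts1 read 1922 in the normal pool and 1822 and 1876 in the mutant pools, a log2 ratio of -0.06 (adjusted p = 0.929). Denr, with which MCT-1 forms a dimer, had a log2 ratio of -0.24, and Eif2d, a related initiation factor, -0.21. Neither passed. Among the relatives of H13, 4 genes were kept, 0 passed and 3 were lower in both mutant arrays, with Sppl3 at -0.39 and Sppl2a at -0.43. Both are intramembrane proteases of the same family, and the 4 genes had a median log2 ratio of -0.38, against -0.02 over the 12913 genes kept, each by its brightest probe set. Of those 12913 genes, 4711 were higher in both mutant arrays and 5050 lower in both. The sign counts of these and the later gene lists are to be read beside these shares, and the lists are small.

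**Figure D3:**
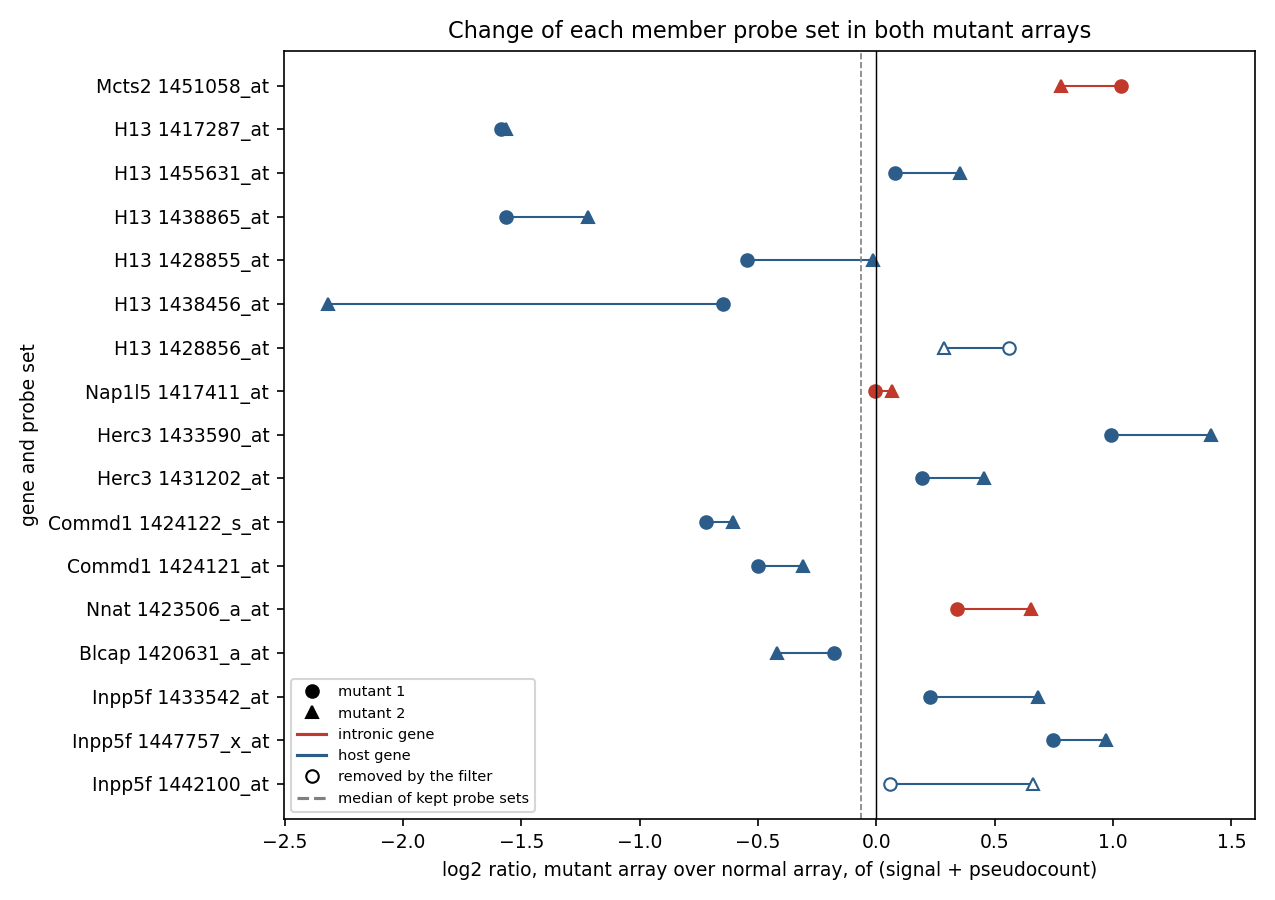
Log2 ratio of each member probe set (rows) in mutant 1 (circles) and mutant 2 (triangles) over the normal array, with intronic genes in red and hosts in blue; the dashed line is the median of kept probe sets, -0.07. Mcts2 lies between 0.78 and 1.03, the H13 probe sets spread from -2.32 to 0.56, and Nap1l5 sits near 0 beside Herc3 between 0.19 and 1.41.

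Nap1l5 in Herc3 showed the other arrangement, with the host above the normal array and the intronic gene near it. Nap1l5 belongs to the nucleosome assembly protein family, whose members carry histones. It read 167 in the normal pool and 166 and 177 in the mutant pools, which was the smallest change of any member. Its log2 ratios were -0.01 and 0.07, with a mean of 0.03 (SE 0.31, adjusted p = 0.979). The SE leaves room for a sizeable change in either direction.

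Herc3 codes for a ubiquitin ligase with a HECT domain. Probe set 1433590_at read 170 in the normal pool and 371 and 506 in the mutant pools. Both mutant signals were above the normal one, with a mean of 438 ± 95.9 (SD, n = 2), 2.57 times the normal signal. The log2 ratios were 0.99 and 1.41, with a mean of 1.20 (SE 0.31, adjusted p = 0.215), the highest of the members, and 2.45% of kept probe sets were higher. The dimmer probe set, 1431202_at, read 81.7 against 98.1 and 124, a log2 ratio of 0.33 (SE 0.36, adjusted p = 0.748). Both probe sets were higher in both mutant pools and differed in size by 0.80 and 0.96 on the log2 scale.

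The change of Nap1l5 relative to Herc3 1433590_at was -0.9998 in mutant 1 and -1.35 in mutant 2, a mean of -1.17 (exact permutation p = 0.333). Against 1431202_at it was -0.30. In this pair the host, and not the gene inside it, was the one further above the normal array. Of 4 other HERC genes, all kept, 3 were higher in both mutant arrays and 0 passed, with Herc6 at 1.20 (adjusted p = 0.323), Herc1 at 0.58 and Herc4 at -0.06, and a median of 0.45. Nap1l1, Nap1l2, Nap1l4 and Set, histone chaperone genes related to Nap1l5, were lower in both mutant arrays (-0.37 for Nap1l4 and -0.19 for Set), and Nap1l3 differed in sign. None of them passed. With Mcts1, which is in the same list, 5 of 6 kept genes were lower in both mutant arrays.

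Commd1, the host of Zrsr1, was lower on both of its probe sets. Its protein is known for copper balance and for the sorting of membrane proteins at endosomes. Probe set 1424122_s_at read 2818 in the normal pool and 1698 and 1844 in the mutant pools. Both mutant signals were below the normal one, with a mean of 1771 ± 103 (SD, n = 2), and the log2 ratio was -0.66 (SE 0.20, adjusted p = 0.259). Probe set 1424121_at read 1495 against 1049 and 1200, a log2 ratio of -0.40 (SE 0.23, adjusted p = 0.508). In the array maker's naming, the suffix _s marks probes that can match more than one transcript, and both probe sets were lower in both mutant pools.

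The other genes of the COMMD complex did not share that direction. Of 11 kept genes, Commd2 to Commd10 and their partners Ccdc22 and Ccdc93, 8 were higher in both mutant arrays, 0 were lower in both and 0 passed. Their median log2 ratio was 0.33, with Commd3 at 0.57 (adjusted p = 0.372) and Ccdc93 at 0.53. The lowest log2 ratio of the 11 was 0.03, above both values of Commd1. Over all 12913 genes kept, 4711 were higher in both mutant arrays and 5050 lower in both. Zrsr1 belongs to the factors that recognise the end of an intron. Of 6 other such factors 5 were lower in both mutant arrays by small amounts, including U2af1l4 at -0.33 and U2af1 at -0.21, while Sf3b1 was at 0.19, and 0 passed.

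Nnat and Blcap differed in direction in both mutant pools, by less than the first pair. Nnat codes for neuronatin, a small membrane protein of the developing nervous system. It read 3492 in the normal pool and 4424 and 5503 in the mutant pools, with both mutant signals above the normal one. The mean was 4964 ± 763 (SD, n = 2), and the log2 ratios of 0.34 and 0.65 had a mean of 0.49 (SE 0.20, adjusted p = 0.377). Blcap, a small membrane protein gene first described in bladder cancer, read 751 in the normal pool and 659 and 553 in the mutant pools. Both mutant signals were below the normal one, and the log2 ratio was -0.30 (SE 0.26, adjusted p = 0.670). The difference, Nnat minus Blcap, was 0.52 in mutant 1 and 1.07 in mutant 2, a mean of 0.80 (exact permutation p = 0.667). Neural tube markers differed in direction from Nnat in the same arrays, with 6 of 8 lower in both mutant pools and a median log2 ratio of -0.85. Their part in the Nnat value was not tested.

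Inpp5f codes for a phosphatase of inositol lipids, also called Sac2, and both of its kept probe sets were higher in both mutant pools. Probe set 1433542_at read 770 in the normal pool and 908 and 1258 in the mutant pools, a log2 ratio of 0.46 (SE 0.28, adjusted p = 0.547). Probe set 1447757_x_at read 145 against 264 and 313, and its log2 ratio was 0.86 (SE 0.30, adjusted p = 0.324). A suffix of _x marks probes that may bind other transcripts as well. The filter removed 1442100_at, which read 45.7, 48.8 and 90.9, level with the normal array in mutant 1. The difference between 1433542_at and 1447757_x_at was -0.52 and -0.28, and which of the 3 reads the imprinted intronic transcript is not given in the sources used here. Of 12 other phosphoinositide phosphatase genes, all kept, 7 were higher in both mutant arrays, 2 lower in both and 0 passed. Synj1 (1.26, adjusted p = 0.115) and Inpp5b (1.03) stood highest and Inpp5j (-0.51) and Inpp5k (-0.21) lowest.

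**Figure D4:**
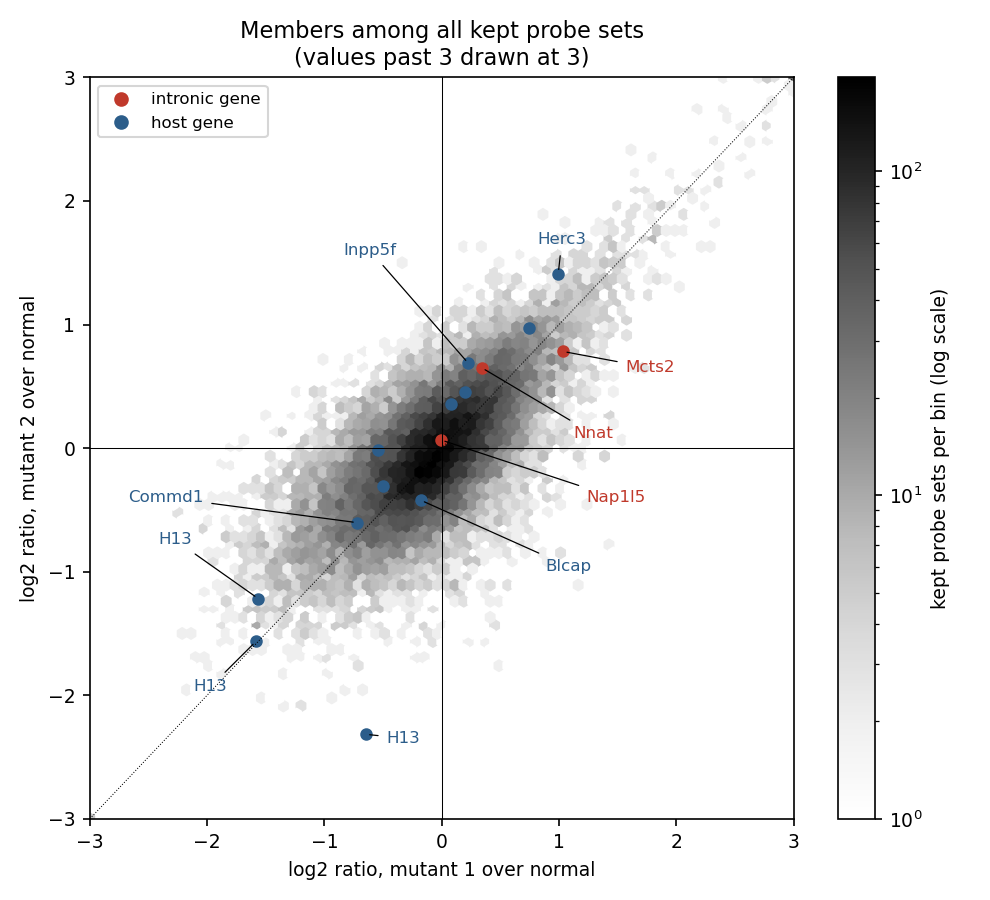
Log2 ratio over the normal array in mutant 1 (horizontal axis) and mutant 2 (vertical axis) for all 27022 kept probe sets (grey, darker for more probe sets) and the 15 kept member probe sets (red for intronic genes, blue for hosts); the dotted line marks equal values. H13 1417287_at lies at -1.58 and -1.56, Mcts2 at 1.03 and 0.78, Herc3 1433590_at at 0.99 and 1.41, and Nap1l5 at -0.01 and 0.07.

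Genes next to each pair on the chromosome were read to see whether a change was shared by the region. The 3 protein-coding genes on each side of each host gave 30 neighbours, of which 22 were kept and 0 passed, with log2 ratios from -0.36 to 0.98. The 3 kept neighbours of H13 ran from -0.31 (Id1) to 0.14 (Cox4i2), nearer to the normal array than H13 1417287_at or Mcts2. All of them lie after H13 on the chromosome, and the genes before it had no probe set of their own, so that side was not read. Beside Herc3, Abcg2, an efflux transporter gene, read 1905 in the normal pool and 3606 and 3958 in the mutant pools, a log2 ratio of 0.98 (adjusted p = 0.127), and the other kept neighbours were Fam13a at 0.55 and Tigd2 at -0.20. The 6 neighbours of Commd1, all kept, ran from -0.20 to 0.81, none as low as either Commd1 probe set. The 5 kept neighbours of Inpp5f were higher in both mutant arrays, from 0.19 to 0.44, as its kept probe sets were. The 5 kept neighbours of Blcap ran from -0.36 to 0.80. The neighbours named here were picked with their values in view.

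The genes with the pattern nearest to Mcts2 over the 2 mutant log2 ratios, among 4487 of similar signal, were Bmt2 (distance 0.02), Glmp (0.03) and the transcription factor gene Gata2 (0.06). For H13 they were H3f3a (0.12), Taf15 (0.24) and A2m (0.28) among 5198. Within a distance of 0.1 there were 12 genes for Mcts2 and 0 for H13 1417287_at. With 2 ratios that share the normal array, such likeness is a description only.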

How the data were processed

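The authors deposited 1 linear intensity for each probe set of each array, made with GCOS and MAS5 per the submitters' processing notes, which give no versions. The mean without the top and bottom 2% of values was 500 on every array, so the deposited intensity values had been scaled per array. RNA was extracted with Trizol per the labels' protocols. The 64 Affymetrix controls were left out of the 45101 probe sets. Of the rest, 34945 had 1 gene symbol in the platform annotation, 932 several and 9160 none, and symbols looked up by gene identifier changed in 0 cases.

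Throughout, log2(signal + 31.92) was used, where 31.92 is the 20th percentile of signal (median of the 3 arrays). The filter removed probe sets whose signal, averaged over the groups, lay under the 40th percentile. Limma (3.58.1, R 4.3.3) was run on all 3 arrays with a variance trend, two-sided, with Benjamini-Hochberg adjustment over 27022 probe sets. There was 1 residual degree of freedom, plus 4.52 prior ones. The test takes the spread of the mutant pools as that of the lone normal pool. Differences between probe sets were tested by exact permutation of the 3 arrays, which cannot give p below 0.333. Sequences are from RefSeq, and all 9 members matched by symbol. Scanner files were not used here.

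The members, related gene lists and marker lists were chosen with earlier results of these data known. All member probe sets are named. From each related list the text names the 2 highest and 2 lowest genes that have the same sign in both mutant arrays, by the smaller of their changes. For Mcts2 and H13 it names the 3 genes at the smallest Euclidean distance. Alternatives were other pseudocounts, filters and scalings, no variance trend, the mean of a gene's probe sets, and each mutant array alone.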

Additional observations from a re-analysis of the deposited data

How the results depend on the processing

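Over the 15 kept member probe sets, all 112 values from refits of the array kept the sign and the side of the threshold. Each mutant array alone gave 30 further values with no test, of which 29 kept the sign. The exception was Nap1l5, whose log2 ratio was -0.00691 without mutant replicate 2 and 0.0659 without mutant replicate 1. The number of member probe sets that passed was 0 under all 8 refits of the array. The lowest adjusted p of a member ran from 0.0756 with median centring to 0.249 with no filter. Mcts2 ranged from 0.87 to 0.98, H13 1417287_at from -1.62 to -1.49 and Herc3 1433590_at from 1.09 to 1.28 over the refits in which they were kept. Taking the mean of all probe sets in place of the brightest, Mcts2 minus H13 was 1.59 and Nap1l5 minus Herc3 was -0.73. Over the whole array, 148 probe sets passed as higher and 8 as lower. With median centring the counts were 263 and 24. Both were 0 with no filter (limma, with 2423 higher and 2451 lower at an unadjusted p under 0.05) and 0 with no variance trend (1641 and 1814), and the cause was not tested. No paired analysis was possible because the normal group has 1 array. The spread between normal pools was not measured.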
